A study of Mus musculus with 8 samples.

Results

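The 7 sirtuins and 3 further genes of NAD metabolism, Nampt, Cd38 and Parp1, were followed in RNA from mouse islets with and without a knockdown of the IGF1 receptor in β-cells. These 10 genes were chosen by name, found in the table through their Ensembl identifiers, and are 10 of the 53012 genes listed there. All 10 passed the filter on low counts, as did 15474 genes in all.

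NAD is a carrier of electrons in metabolism that several enzymes also consume as a substrate. Sirtuins are NAD-dependent deacylases that remove acyl groups from proteins, and their activity falls when NAD is scarce. Nampt makes the precursor NMN from nicotinamide and limits the rate of NAD salvage, whereas Cd38 hydrolyses NAD and Parp1 spends it on ADP-ribose chains at damaged DNA. In β-cells this system is known for its ties to insulin secretion: Sirt1 represses Ucp2, Sirt4 inhibits glutamate dehydrogenase (Glud1), and Cd38 produces the calcium messenger cyclic ADP-ribose.

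Islets came from 8 mice aged 17 months, with 1 bulk RNA-seq library for each mouse. The 4 βIgf1rKD mice (Ins1-CreERT2 +/-, Igf1r flox/flox; mice M145, M146, M149 and M150) received 5 injections of tamoxifen at 0.075 mg/g body weight, which activates the Cre recombinase where the insulin promoter is active. The 4 βIgf1r mice (Ins1-CreERT2 -/-, Igf1r flox/flox; mice M148, M151, M152 and M153) had the same floxed alleles, no Cre, and received the oil vehicle. Islets were taken 7 days after the last injection. The knockdown, the presence of Cre and the tamoxifen itself therefore cannot be told apart in this comparison. Both sexes were in each group and are not marked per mouse, and Xist was above 8 log2 CPM in 1 βIgf1r and 3 βIgf1rKD mice and at most 2.76 in the rest.

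Total estimated counts ranged from 21634080 to 42391328 per mouse. Values are given as CPM, the counts scaled to a common library size, and log2 fold changes as βIgf1rKD against βIgf1r. Igf1r itself was at 53.6 ± 7.21 CPM in βIgf1r and 50.7 ± 4.996 CPM in βIgf1rKD islets (SD, n = 4 each), a log2 fold change of -0.08 (SE 0.11, exact permutation test, two-sided p = 0.543). The estimated count of a gene does not separate transcripts with and without the floxed exon. The endocrine hormones Ins1, Ins2, Gcg, Sst and Ppy were present in every mouse. Ins1, the insulin gene whose promoter names the Cre line, was at 31090 to 50370 CPM in βIgf1r and at 19120 to 28540 CPM in βIgf1rKD mice, without overlap (log2 fold change -0.92, SE 0.33, edgeR, unadjusted p = 0.0204, adjusted p = 0.987). The endocrine markers together took 18.9% to 25.9% of counts in βIgf1r and 13% to 25.8% in βIgf1rKD mice. Bulk RNA does not tell fewer cells of a type from less RNA per cell. The summed level of 12 acinar markers lay between 19370 and 196600 CPM in βIgf1r and between 42800 and 238300 CPM in βIgf1rKD mice, and that of 11 endothelial markers between 494.5 and 619.6 against 438.9 and 493.5 CPM. All 11 endothelial markers were lower in βIgf1rKD, 6 with an unadjusted p under 0.05 by edgeR (4.12% of all genes) and 0 with an adjusted one. Of the 12 acinar markers 11 were higher in βIgf1rKD, with a median log2 fold change of 0.82, and 0 had an unadjusted p under 0.05 by edgeR. Higher were also 6 of 9 leukocyte, 4 of 5 duct and 4 of 8 fibroblast and pericyte markers tested. By edgeR 1 leukocyte marker was higher, and 1 of the fibroblast and pericyte list lower, at an unadjusted p under 0.05. No marker in the islet, acinar and endothelial lists was at 0. Fits with the acinar or the endothelial score as a covariate are given at the end. Beyond these the part of these cells in the values below was not tested.

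No difference between the groups was detected in any of the 10 genes. By edgeR's quasi-likelihood test 0 of 10 had an unadjusted p under 0.05, where 4.12% of all genes tested did (637 genes), and 0 had an adjusted p under 0.05 (0% of all genes). DESeq2 called 8 and limma-voom 1 of all genes at an adjusted p under 0.05. In 0 of 10 did the groups fail to overlap, against 2.22% of all genes. 5 were higher and 5 lower in βIgf1rKD, with a median log2 fold change of 0.01 beside 0.01 over all genes, and a range from -0.25 (Cd38) to 0.17 (Sirt7).

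**Figure D1:**
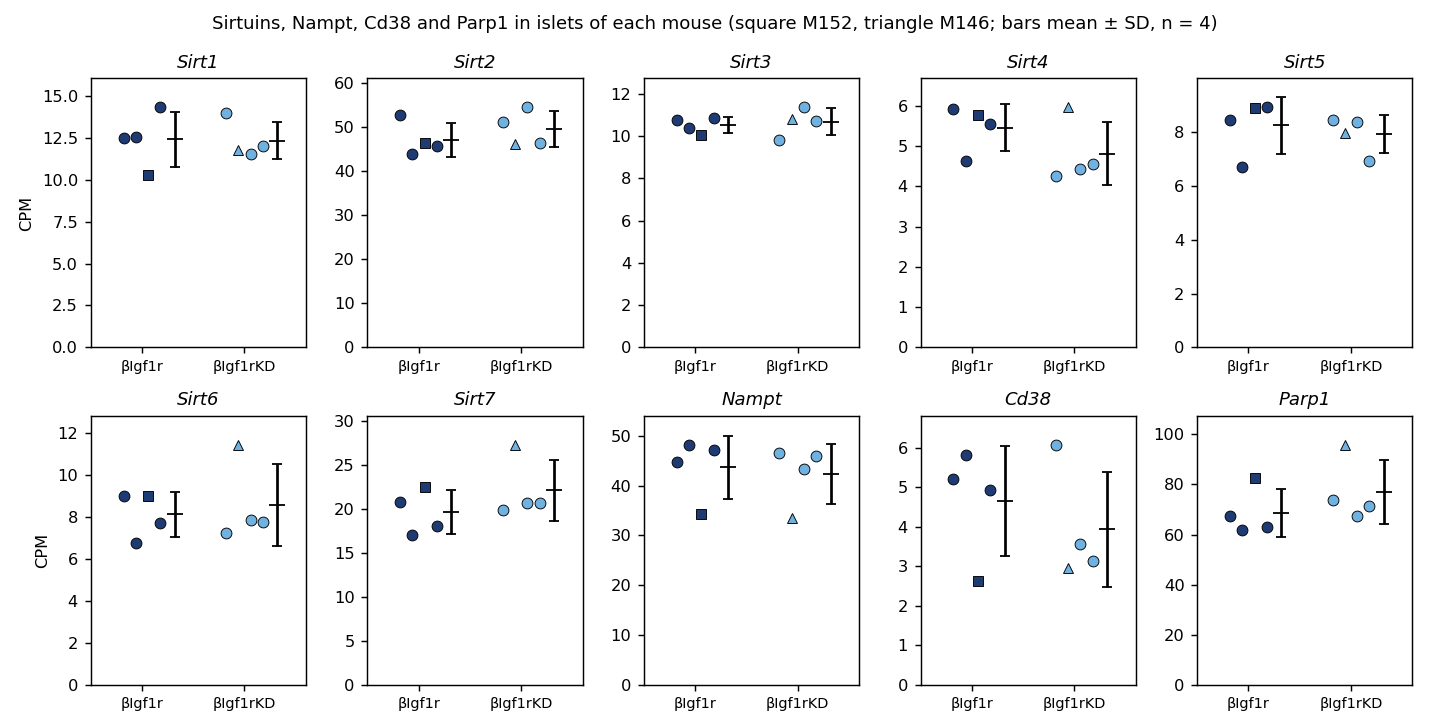
CPM of each gene (vertical axis, from 0) in the 4 βIgf1r (dark) and 4 βIgf1rKD (light) mice, with the mean and SD beside the points. The groups overlap in all 10 panels, and the square (M152) and the triangle (M146) are the lowest points for Nampt and the highest for Parp1 and Sirt7.

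Sirt1, the nuclear deacetylase that acts on histones and transcription factors, was at 12.5, 12.6, 10.3 and 14.3 CPM in M148, M151, M152 and M153, and at 13.9, 11.8, 11.5 and 12.01 CPM in M145, M146, M149 and M150. The lowest and the highest mouse were both βIgf1r, and the βIgf1rKD mice lay between them. Its log2 fold change was -0.01 (SE 0.12, 95% interval -0.28 to 0.25).

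Sirt2, mainly a cytoplasmic tubulin deacetylase, was the most abundant sirtuin by CPM, at 47.1 ± 3.85 in βIgf1r and 49.5 ± 4.03 in βIgf1rKD islets (SD, n = 4), with a log2 fold change of 0.07 (SE 0.09). Its mice ranged from 43.9 to 54.4 CPM, with M149 the highest.

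Of the mitochondrial sirtuins Sirt3 was the steadiest. Sirt3, the main mitochondrial deacetylase, lay between 9.83 and 11.4 CPM in all 8 mice, and its SD of log2 CPM, 0.07, was smaller than that of all but 1.8% of the genes tested, where the median gene had 0.20. Its log2 fold change was 0.02 (SE 0.09). Sirt3 shares 418 exonic bases with Ric8a and 342 with Psmd13 on the opposite strand, and whether strand was used in counting is not given.

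Sirt4 was at 5.91, 4.62, 5.77 and 5.55 CPM in the βIgf1r mice and at 4.26, 5.96, 4.44 and 4.56 CPM in the βIgf1rKD mice. M146 held the highest value of all and the other 3 βIgf1rKD mice the lowest of all. The margin was small, with M150 at 4.56 CPM (185 counts) beside M151 at 4.62 CPM (127 counts). The log2 fold change was -0.18 (SE 0.15, 95% interval -0.53 to 0.16, exact permutation p = 0.229), and -0.30 without M146 (edgeR, unadjusted p = 0.0619). Glud1, whose enzyme Sirt4 inhibits, was at 100.8 ± 4.47 and 98.6 ± 6.38 CPM (log2 fold change -0.03, SE 0.08). Sirt5, a desuccinylase, was at 8.24 ± 1.05 and 7.92 ± 0.69 CPM (log2 fold change -0.06, SE 0.13).

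Sirt6, a chromatin deacetylase that takes part in DNA repair, was at 8.97, 6.77, 9.01 and 7.68 CPM in βIgf1r and at 7.21, 11.4, 7.84 and 7.77 CPM in βIgf1rKD mice. Only M146 exceeded the βIgf1r range, and the log2 fold change was 0.08 (SE 0.17). Sirt7, the nucleolar sirtuin, was at 20.8, 17.1, 22.5 and 18.01 CPM in βIgf1r and at 19.8, 27.3, 20.6 and 20.7 CPM in βIgf1rKD mice. M146 was again the highest, followed by M152. The log2 fold change was 0.17 (SE 0.13, 95% interval -0.12 to 0.47), 0.06 without M146 and 0.25 without M152. Sirt7 shares 124 exonic bases, 2.41% of its own, with Mafg on the same strand. Mafg had 978 to 1873 counts per mouse, and what this stretch adds to Sirt7 was not tested.

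Nampt was at 44.8, 48.2, 34.4 and 47.2 CPM in βIgf1r and at 46.5, 33.4, 43.3 and 46.0 CPM in βIgf1rKD mice. One mouse of each group, M152 and M146, stood below the other 6, which lay between 43.3 and 48.2 CPM. The log2 fold change was -0.04 (SE 0.13, 95% interval -0.35 to 0.26) and was 0.05 without M146 and -0.14 without M152.

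Cd38 was the least abundant gene, with 74 to 196 counts per mouse, and the most variable. It was at 5.22, 5.82, 2.63 and 4.93 CPM in βIgf1r and at 6.08, 2.96, 3.57 and 3.13 CPM in βIgf1rKD mice. The highest value was that of a βIgf1rKD mouse, M145, and the lowest that of a βIgf1r mouse, M152. The estimate was -0.25 on the log2 scale (SE 0.30), and its 95% interval, from -0.92 to 0.42, held folds from 0.53 to 1.34. Leaving out 1 mouse gave log2 fold changes from -0.53 (without M145) to -0.12 (without M151).

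Parp1 was at 67.2, 61.7, 82.5 and 62.9 CPM in βIgf1r and at 73.8, 95.9, 67.3 and 71.6 CPM in βIgf1rKD mice. M146 and M152 were the highest of their groups. Between the groups the log2 fold change was 0.17 (SE 0.13, 95% interval -0.13 to 0.47), 0.05 without M146 and 0.27 without M152 (edgeR, unadjusted p = 0.0586).

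**Figure D2:**
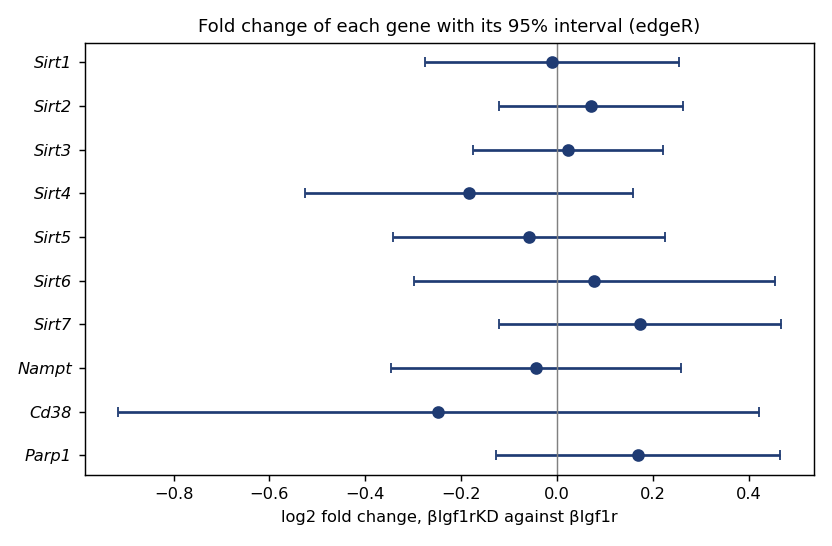
Log2 fold change of βIgf1rKD against βIgf1r for each gene (horizontal axis), with points for the edgeR estimate and bars for its 95% interval. Every interval holds 0, and the widest is that of Cd38, from -0.92 to 0.42.

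Per kilobase of exon, levels can be set beside each other. On this scale Parp1 came first with a mean of 13.8 CPM per kb over the 8 mice, then Sirt2 with 9.59 and Nampt with 8.50 CPM per kb. Parp1 exceeded Sirt2 in 8 of 8 mice and Sirt2 exceeded Nampt in 6 of 8. Sirt7 followed at 4.05 CPM per kb, Sirt6 at 2.99, Sirt1 at 2.32, Sirt4 at 2.14, Sirt3 at 1.77, Sirt5 at 1.33 and Cd38 at 1.10 CPM per kb. Sirt1 and Sirt4 were not ordered beyond their spread, with Sirt1 above in 5 of 8 mice. The order depends on the length used: per kilobase of the longest coding transcript Sirt2 came first at 22.8 CPM per kb, ahead of Parp1 at 18.8, and Sirt3 rose to 6.60 CPM per kb. Sirt7 at 12.1 then stood above Nampt at 9.49, and Sirt1 at 2.79 below Sirt5 at 3.33 and Sirt4 at 2.86 CPM per kb. Of the summed sirtuin level per kilobase of exon, Sirt2 made up 39.3% ± 1.44 in βIgf1r and 40.0% ± 3.87 in βIgf1rKD islets, and Sirt7 16.0% ± 1.40 and 17.4% ± 1.91 (SD, n = 4). Shares by the longest coding transcript were not computed.

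For some of the 10 genes, a pattern between the mice crossed the groups. M152 (βIgf1r) and M146 (βIgf1rKD) lay below the other 6 mice for Nampt and Cd38 and above them for Sirt6, Sirt7 and Parp1. The margin was small for Sirt6, with M152 at 9.01 CPM beside 8.97 in M148. It was also small for Cd38, with M146 at 2.96 CPM beside 3.13 in M150. For Sirt1, Sirt2, Sirt3, Sirt4 and Sirt5 both mice did not stand apart together. Over all genes tested, 24.2% had both of these mice outside the other 6 on the same side.

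Over the 45 pairs of genes, 4 correlated across the 8 mice at an adjusted exact permutation p under 0.05 by Pearson's r. An r at least as far from 0 as the weakest of these, 0.856, was found in 5 of the 45 pairs (11.1%) and in 1.77% of all pairs of genes tested, a description only, since the 5 pairs share 4 genes. Sirt7 fell where Nampt was high (r = -0.88, adjusted exact p = 0.00446, rho = -0.93, adjusted exact p = 0.0335), and r was -0.78 without the 2 mice farthest from the median of Sirt7, M151 and M146. Sirt6 and Nampt gave r = -0.86 (adjusted exact p = 0.0271, rho = -0.95, adjusted exact p = 0.0257, r = -0.67 without M152 and M146). Sirt6 and Sirt7 gave r = 0.93 (adjusted exact p = 0.0271, rho = 0.95, adjusted exact p = 0.0257, r = 0.70 without M152 and M146). Sirt7 and Parp1 gave r = 0.94 (adjusted exact p = 0.0223), with rho = 0.79 not passing the adjustment (adjusted exact p = 0.157), and r = 0.79 without M151 and M146. Within each group of 4 mice no correlation was computed.

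For some of the 10 genes, but not all, the base composition of the transcript went with this pattern. The GC content of the longest coding transcript was 40.3% for Nampt, 40.9% for Cd38 and 44.0% for Sirt1, where 6.16%, 7.67% and 18.7% of all genes were lower. It was 58.4% for both Sirt6 and Sirt7, where 90.6% and 90.7% of genes were lower, and 52.7% for Parp1, where 63.4% were lower. Sirt2, Sirt3 and Sirt4, which did not follow the pattern, were richer in GC than Parp1, at 54.2%, 53.8% and 53.5%. Sirt5 was at 47.4%. For each mouse, the median deviation from the mean log2 CPM of the 8 mice was taken over the 10% of genes richest in GC, and that of the 10% poorest in GC was subtracted. This difference was 0.40 in M152 and 0.42 in M146, 0.12 in M149, and between -0.32 and -0.06 in the other 5 mice.

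Nampt followed this difference closely and inversely (r = -0.96, adjusted exact permutation p = 0.00198, rho = -0.98, adjusted exact p = 0.00397, n = 8), and r was -0.93 without M152 and M146. Sirt1 gave r = -0.84 (adjusted exact p = 0.0226, rho = -0.88, adjusted exact p = 0.0181, r = -0.84 without both mice). Sirt7 gave r = 0.87 (adjusted exact p = 0.00496, rho = 0.91, adjusted exact p = 0.0152, r = 0.71 without them). For Sirt6 r was 0.82 (adjusted exact p = 0.0226, rho = 0.91, adjusted exact p = 0.0152), and for Parp1 r was 0.83 (adjusted exact p = 0.0226, rho = 0.76, adjusted exact p = 0.0735). Without M152 and M146 r fell to 0.49 for Sirt6 and to 0.25 for Parp1, so that part of both values came from these mice. Cd38 gave r = -0.81 (adjusted exact p = 0.0284, rho = -0.71, adjusted exact p = 0.096, r = -0.57 without them). Sirt2, Sirt3, Sirt4 and Sirt5 did not pass (r = 0.04, 0.08, 0.49 and 0.26). These 10 relations were adjusted together. Nampt and Cd38 belong to the 10% of genes poorest in GC, and Sirt6 and Sirt7 to the 10% richest. Since these sets define the difference, the direction of their relations was partly set in advance. The p-values of these genes are therefore no test of a relation particular to them. The share of all genes that would pass the same tests is not given here.

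When log2 CPM was centred in each mouse within 10 sets of genes of like GC content, the range of Nampt over the 8 mice shrank from 0.53 to 0.20, that of Sirt7 from 0.68 to 0.36, that of Sirt6 from 0.75 to 0.43 and that of Sirt1 from 0.47 to 0.24 on the log2 scale. The range of Parp1 went from 0.64 to 0.54 and that of Cd38 from 1.19 to 0.88. Sirt5, Sirt2 and Sirt3 did not narrow. After centring M152 and M146 still lay below the other 6 mice for Nampt and above them for Parp1, lay below them for Sirt2, and no longer stood apart for Cd38, Sirt6 and Sirt7. Over all genes tested 16.6% still had both mice outside on the same side. Whether base composition accounts for the pattern was not tested beyond these values.

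**Figure D3:**
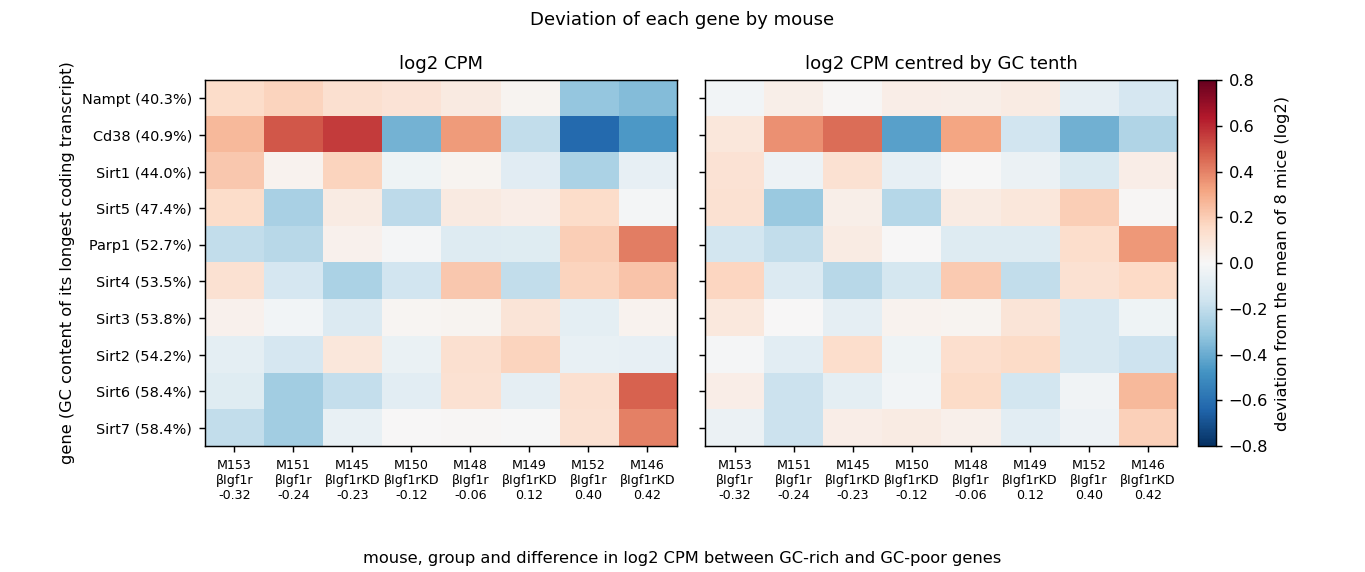
Deviation of each gene from its mean over the 8 mice (colour, log2 scale), before (left) and after (right) centring by GC content. Rows are ordered by the GC content of the transcript and columns by the difference between GC-rich and GC-poor genes in each mouse, and the 2 columns at the right, M152 and M146, are low for Nampt and high for Sirt6 and Sirt7 on the left and paler for these genes on the right.

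The promoters of Nampt, Cd38, Sirt7 and Parp1 are shown because these genes took the opposite ends of that pattern. Each runs 5′ to 3′ along the gene, from 250 bases before to 50 after its start in RefSeq (GRCm38.p6), at chr12:32820085-32820384 (+ strand), chr5:43868559-43868858 (+), chr11:120624965-120625264 (- strand) and chr1:180568641-180568940 (+). Capitals mark matches on either strand to 3 motifs, the E-box CACGTG, the GC box GGGCGG and the CCAAT box.
Nampt: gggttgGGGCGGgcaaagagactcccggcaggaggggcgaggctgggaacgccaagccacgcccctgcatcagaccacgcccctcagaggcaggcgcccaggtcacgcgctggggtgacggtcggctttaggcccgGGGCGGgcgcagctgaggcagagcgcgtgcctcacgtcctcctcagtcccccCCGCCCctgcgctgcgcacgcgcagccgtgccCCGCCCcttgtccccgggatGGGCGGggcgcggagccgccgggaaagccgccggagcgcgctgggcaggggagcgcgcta
Cd38: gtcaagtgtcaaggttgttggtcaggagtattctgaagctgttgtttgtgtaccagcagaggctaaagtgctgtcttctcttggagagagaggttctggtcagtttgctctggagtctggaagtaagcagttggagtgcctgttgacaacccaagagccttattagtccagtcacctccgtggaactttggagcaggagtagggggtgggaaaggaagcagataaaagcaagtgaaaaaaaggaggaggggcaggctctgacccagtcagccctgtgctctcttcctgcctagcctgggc
Sirt7: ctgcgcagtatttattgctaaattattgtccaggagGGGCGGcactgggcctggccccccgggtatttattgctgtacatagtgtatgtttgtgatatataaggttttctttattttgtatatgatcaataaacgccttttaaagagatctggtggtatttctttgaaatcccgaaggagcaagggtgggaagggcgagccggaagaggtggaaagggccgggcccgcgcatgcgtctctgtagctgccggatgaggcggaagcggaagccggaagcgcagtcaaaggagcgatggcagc
Parp1: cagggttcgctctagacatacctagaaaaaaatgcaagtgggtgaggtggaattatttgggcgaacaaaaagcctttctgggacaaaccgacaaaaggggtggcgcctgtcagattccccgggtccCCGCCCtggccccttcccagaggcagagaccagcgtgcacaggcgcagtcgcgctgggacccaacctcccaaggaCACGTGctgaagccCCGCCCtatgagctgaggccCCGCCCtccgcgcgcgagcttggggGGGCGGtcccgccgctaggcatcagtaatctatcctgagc
The Nampt window held 5 GC boxes and 36 CpG, with a GC content of 76.3%, which exceeds that of 97.1% of promoters. The Cd38 window held 1 CpG, where the median promoter had 7, and none of the 3 motifs. The Nampt and Cd38 windows thus differ in CpG and in GC boxes, and the part of promoters in the pattern was not tested. Parp1 held 4 GC boxes and 1 E-box, and Sirt7 1 GC box. Of 32851 promoter windows 35.7% hold a GC box, 7.15% an E-box and 37.4% a CCAAT box. A match is a description of the letters and not a bound site.

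The genes around these enzymes were counted in 7 lists of NAD-related genes, in which 79 of 89 identifiers passed the filter. Of these 39 were higher and 40 lower, and 4 (5.06%) had an unadjusted p under 0.05 by edgeR, beside 4.12% of all genes. These 4 were higher in βIgf1rKD, and of the 637 such genes among all tested 345 were higher and 292 lower. None had an adjusted p under 0.05 by edgeR.

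Of the genes for NAD synthesis and salvage 3 were higher and 5 lower of 8 tested. Naprt, which starts the route from nicotinic acid, was at 2.37, 2.80, 4.201 and 3.18 CPM in βIgf1r and at 5.10, 4.50, 7.31 and 3.95 CPM in βIgf1rKD mice. The groups overlapped, with M152 above M150. The log2 fold change was 0.73 (SE 0.24, edgeR, unadjusted p = 0.0137, adjusted p = 0.987). Of the Nmnat enzymes, which join NMN to an adenylyl group to give NAD, none had an unadjusted p under 0.05 by edgeR. Nmnat2, the most abundant of the list beside Pnp (16.8 and 17.98 CPM), went from 28.9 ± 3.98 to 33.4 ± 3.31 CPM (log2 fold change 0.21, SE 0.11, edgeR, unadjusted p = 0.0972, but 0.0343 without M151 and 0.0143 with the GC difference described above as a covariate), Nmnat1 had -0.02 (SE 0.16) and Nmnat3 -0.09 (SE 0.10). Of the kynurenine route 3 of 8 genes passed the filter, and Afmid, its most abundant, was at 1.55 and 1.63 CPM and Tdo2 at 0.92 and 0.84 CPM.

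Among genes for NADP formation, transport and clearance 5 were higher and 4 lower of 9. Nadk, the cytosolic NAD kinase, was at 45.5 ± 2.35 and 50.9 ± 3.02 CPM (log2 fold change 0.16, SE 0.07, edgeR, unadjusted p = 0.0476). The mitochondrial NAD carrier Slc25a51 was at 86.3 and 87.7 CPM. Nnt, the transhydrogenase of the inner membrane, appears under 2 identifiers, and that with the lower count had a log2 fold change of 0.77 (SE 0.26, edgeR, unadjusted p = 0.016), whereas the other (ENSMUSG00000116207) had -0.20 (SE 0.13). The 2 summed lay between 24.7 and 30.3 CPM in βIgf1r and between 27.5 and 30.3 CPM in βIgf1rKD mice, and reads may be split between the identifiers. Nnmt had 0 to 6 counts per mouse and was not tested.

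Of 18 other NAD consumers 7 were higher and 11 lower. Bst1, a relative of Cd38 with the same reaction, was at 0.56, 1.09, 0.64 and 0.43 CPM in βIgf1r and at 2.95, 1.04, 1.22 and 0.72 CPM in βIgf1rKD mice, on 9 to 63 counts. M145 was far above the others, and the log2 fold change of 1.09 (SE 0.48, edgeR, unadjusted p = 0.0465) fell to 0.53 without it. Tnks2 (136.2 and 133.8 CPM) and Tnks (63.1 and 61.8 CPM), which are tankyrases, were the most abundant of the list, and Parp2 had a log2 fold change of -0.05 (SE 0.09).

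Of 11 genes for ADP-ribose removal 6 were higher and 5 lower, with Adprh at 36.3 and 35.0 CPM and Parg at 29.4 and 31.0 CPM. Of 19 sirtuin regulators and substrates 11 were higher and 8 lower. Sdha, of the succinate dehydrogenase, was at 230.2 and 220.9 CPM, and Ucp2, the uncoupling protein repressed by Sirt1, at 166.0 ± 14.4 and 166.2 ± 5.74 CPM, a log2 fold change of 0.001 (SE 0.09). The zinc-dependent deacetylases, which do not use NAD, held 5 higher and 6 lower genes of 11, with Hdac6 at 142.3 and 134.4 CPM and Hdac5 at 70.2 and 72.3 CPM.

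**Figure D4:**
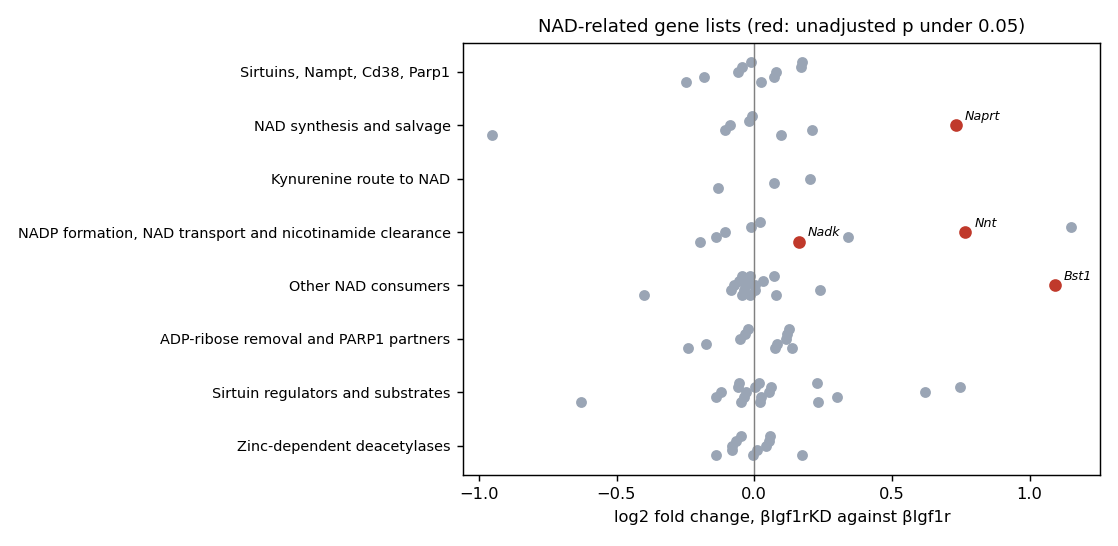
Log2 fold change of βIgf1rKD against βIgf1r (horizontal axis) for each tested gene of the sirtuin set and of 7 lists (rows), 1 point a gene, with unadjusted p under 0.05 in red. The 4 red points, Naprt, Nadk, 1 of the 2 identifiers of Nnt and Bst1, all lie to the right of 0. None is a sirtuin, Nampt, Cd38 or Parp1.

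By likeness of pattern over the 8 mice (Pearson's r of log2 CPM, chosen from all genes tested), the genes nearest to Nampt were Abi1 (r = 0.995) and Pip4p2 (r = 0.993), those nearest to Sirt1 were Ly96 (r = 0.987) and Gm20939 (r = 0.982), those nearest to Cd38 were Zfp810 (r = 0.988) and Tbc1d24 (r = 0.964), and those nearest to Parp1 were Gm20163 (r = 0.995) and Edc4 (r = 0.985). With so many genes and 8 mice, high values are found by selection, and no test was made.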

How the data were processed

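RNA from islets of 8 mice was measured by bulk RNA-seq of stranded mRNA libraries. The authors deposited estimated counts per gene and mouse without normalization. The submitters' processing notes name fastp, kallisto and the build GRCm38, and the strand setting of the counting and the annotation release are not given in the sources used here. Of 53012 identifiers 51906 were matched to a symbol. Lengths, loci and GC content came from GENCODE on GRCm38 and promoters from RefSeq.

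Estimated counts were rounded. edgeR 4.0.16 in R 4.3.3 filtered genes with its defaults (minimum count 10, minimum total 15), computed TMM factors and tested the groups by its quasi-likelihood test with Benjamini-Hochberg adjustment over 15474 genes. Log2 CPM used a prior count of 2. Permutation tests were exact and two-sided, over 70 assignments of mice for a difference between groups, whose smallest p is 0.0286, and over 40320 pairings for a correlation. DESeq2 1.42.0, limma 3.58.1, other filters and scaling, covariates (Xist, acinar and endothelial scores) and leaving out each mouse were alternatives. Leaving out M146 and M152 together and the use of GC content were chosen after seeing the data. The fit was tested on simulated counts. Libraries of a group differed far beyond sampling noise.

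The genes and lists were chosen with earlier results of these data known. The genes named are the 10 genes, Igf1r, hormones, the 2 most abundant genes of each list, up to 3 in each direction with an unadjusted p under 0.05, Nmnat1, Nmnat2, Nmnat3, Naprt, Bst1, Parp2, Nnmt, Nadk, Ucp2 and Glud1, and the 2 genes most like Sirt1, Nampt, Cd38 and Parp1. Depth of 21634080 to 42391328 counts leaves counting error small except for genes such as Cd38, Sirt4 (91 to 222 counts), Naprt (67 to 168 counts) and Bst1. Plots were drawn with matplotlib 3.10.9.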

Additional observations from a re-analysis of the deposited data

Results flagged for a closer look

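Sirt7 in the βIgf1rKD mouse M146 was at 4.78 log2 CPM, apart from the other 3 mice of its group, of which the highest was at 4.38. Of 20 sets of 4 mice looked at in this way, about 1 would stand apart by chance.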

How the results depend on the processing

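No sirtuin, nor Nampt, Cd38 or Parp1, reached an unadjusted p under 0.05 under any of the 20 alternatives, and the median log2 fold change of all genes stayed within 0.02 of 0. Over all genes, the count at an adjusted p under 0.05 was 8 by DESeq2, 1 by limma-voom and 3 with M146 and M152 left out. The count at an unadjusted p under 0.05 was 1098 with no filter, 1143 with Xist and 421 with the acinar score as a covariate, 1212 without M146 and M152, and 383 to 1114 when 1 mouse was left out (383 without M148, 402 without M153, 960 without M146, 1114 without M152). Counts for the NAD lists follow, with those of all genes in brackets. With Xist 6 passed (1143), and 6 with the GC difference as a covariate (795). By limma-trend 4 passed with GC centring (771) and 2 without (601). Also 2 passed by limma-voom (565), with 10 counts in every mouse (557) and with the acinar score (421). With the endothelial score 0 passed (441). When 1 mouse was left out 2 to 6 passed, with the lowest count without M148 (383) or M145 (467). The fit with 10 counts in every mouse tested 14091 genes, and the other fits named here on all mice 15474.

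Some log2 fold changes turned their sign. With the endothelial score they were -0.37 for Bst1 (1.09 in the report), 0.028 for Igf1r, -0.013 for Nmnat2, 0.07 for Sirt4 and 0.15 for Sirt5. With Xist they were 0.023 for Igf1r and 0.042 for Sirt5, and with the acinar score 0.053 for Nmnat1. With the GC difference as a covariate they were 0.029 for Nampt, 0.032 for Nmnat1, 0.043 for Sirt1 and -0.0065 for Sirt6, and after centring by GC 0.028 for Sirt1 and -0.022 for Ucp2. Without M146 and M152 they were -0.0046 for Sirt3, -0.039 for Sirt6 and -0.020 for Ucp2. For Ucp2 DESeq2 gave -0.0004 and the fit with no filter -0.0007. Leaving out 1 mouse gave -0.057 to 0.012 for Glud1, -0.14 to 0.053 for Nampt, -0.11 to 0.034 for Nmnat1, -0.091 to 0.061 for Sirt1, -0.0074 to 0.060 for Sirt3, -0.15 to 0.0013 for Sirt5, -0.094 to 0.15 for Sirt6 and -0.041 to 0.060 for Ucp2. The cause was not tested. The summed endothelial level did not overlap between the groups, so a fit with the endothelial score hardly separates it from the group. With this score the SE rose from 0.48 to 0.73 for Bst1, from 0.15 to 0.30 for Sirt4 and from 0.11 to 0.22 for Igf1r. The sign changes and the count of 0 genes with this score are limited by that. Naprt kept an unadjusted p under 0.05 in 19 of 20 alternatives, Nadk in 6 and Bst1 in 8 of 19, and Nmnat2 reached one in 2 of 20. For Nnt only the identifier with the lower count was followed, and it kept one in 18 of 20. No paired analysis was made because the labels give no litter or other pairing of mice between the groups. With 4 mice a group, the interval of Cd38 leaves folds from 0.53 to 1.34.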
